A study of Mus musculus with 60 samples.

Results

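Astrocytes were followed through 31 genes that are commonly used to recognise them, in RNA-Seq of the mouse dentate gyrus (DG), the hippocampal field in which granule neurons receive cortical input. The genes were taken by name from a list, which was drawn up with earlier results of these data known. All 31 had counts in every sample and passed the limit on low counts, among 17040 genes tested of 46480 counted. The samples came from male C57BL6J mice that were weaned on day 22 and collected at 80 days of age. They lived in between either in standard housing (SH), a small cage shared by a few males, or in an enriched environment (EE), a large group cage with running wheels and toys that were changed. Whole tissue was punched from frozen slices, cut coronally for the dorsal and horizontally for the ventral DG, so that region and plane of slicing cannot be told apart, and each sample pooled the tissue of several mice. Dorsal and ventral samples with the same housing and number came from the same mice. In each region 4 SH and 5 EE samples were used, which are 9 pools and 18 of the 20 RNA samples. The third SH pool, which the study's sample sheet marks as mixed in sex, was left out in both regions. The p-values given here rest on the spread between pools within each region and housing. The main fit had no term for the pool. Where it compared the regions, alone or in their dependence on housing, it took paired samples from the same mice as independent. A fit with the pool as a block was an alternative.

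Astrocytes take up the glutamate that neurons release, convert it to glutamine, buffer potassium and water, pass small molecules to each other through gap junctions, and wrap synapses and blood vessels with fine processes. They also secrete proteins that carry lipid and that act on synapses. In the DG their markers need care, since the radial glia-like stem cells of the subgranular zone share many of them, among which *Gfap*, *Slc1a3* and *Fabp7* are the best known. Some members are made by other cells as well, for example *Apoe* and *Cst3* by microglia.

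Levels of different genes were compared in TPM, which corrects for transcript length, and the members covered a wide range on that scale. *Apoe*, which carries lipid between cells, was the highest member at a mean of 747 TPM (608 to 913 over 18 samples), and *Cst3*, a secreted inhibitor of cysteine proteases, followed at 676 TPM (554 to 833). The order of these neighbours was not firm, since *Apoe* exceeded *Cst3* in 13 of 18 samples. *Glul*, the enzyme that makes glutamine, had 381 TPM, *Sparcl1* 332, *Aldoc* 273, the glutamate transporter *Slc1a2* 245, *Clu* 231 and *Ndrg2* 176. The second glutamate transporter, *Slc1a3*, stood at 104 TPM, above the intermediate filament gene *Gfap* at 78.0 TPM in 17 of 18 samples. The water channel gene *Aqp4* had 26.0 TPM and the folate enzyme gene *Aldh1l1* 10.7 TPM. At the bottom were *Thbs4*, a secreted thrombospondin, at 1.47 TPM, and *Gli3*, a transcriptional effector of hedgehog signaling, at 0.798 TPM. Of the 30 pairs of neighbours in this order, 8 kept their order in all 18 samples. The defining astrocyte markers were therefore present in every sample, beside neuronal *Snap25* at a mean of 426 TPM and myelin *Mbp* at 246 TPM.

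Between 22919364 and 28301861 fragments were counted on genes per sample (median 25816352). The least covered member, *Thbs4*, had 177 to 367 fragments per sample and the most covered, *Slc1a2*, 111678 to 163712. From here on, levels of a gene across samples are in CPM, the fragments of the gene scaled to the total counted in the sample, with TMM factors. They are listed in the order of the replicates, which are 1, 2, 4 and 5 for SH and 1 to 5 for EE. Replicate spread of the members, as the coefficient of variation within a group, had a median of 7.70% in dorsal SH, 8.83% in dorsal EE, 8.37% in ventral SH and 12.5% in ventral EE.

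Dorsal and ventral DG were compared first, to ask how astrocyte genes are placed along the axis that separates spatial from emotional functions of the hippocampus. Among the 31 members, 12 were higher in ventral DG, 1 was higher in dorsal DG and 18 were not called. A gene was called when the adjusted p of edgeR's quasi-likelihood test (Benjamini-Hochberg) was under 0.05 and the fold change exceeded 20%. Of all genes tested, 15.9% were called higher in ventral and 15.0% higher in dorsal by the same rule. Without the fold limit, 18 members were higher in ventral and 2 in dorsal, against 26.3% and 25.9% of all genes. The median log2 fold change of dorsal over ventral was -0.17 over the members, with 26 of 31 below 0, and -0.0046 over all genes tested. Every ventral sample lay above every dorsal sample for 7 members (*S100b*, *Aldoc*, *Fgfr3*, *Fabp7*, *Mfge8*, *Ndrg2* and *Ppp1r3c*), a separation seen in 9.44% of all genes. *Thbs4* was the 1 member with every dorsal sample above every ventral sample, which 9.51% of all genes showed. When the regions were compared within each pool of mice, 17 members differed in the same direction in all 9 pools, beside 40.4% of all genes, 15 of them lower in dorsal and 2, *Slc4a4* and *Thbs4*, higher. In these bulk samples, fewer cells of a type and less RNA per cell cannot be told apart.

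**Figure D1:**
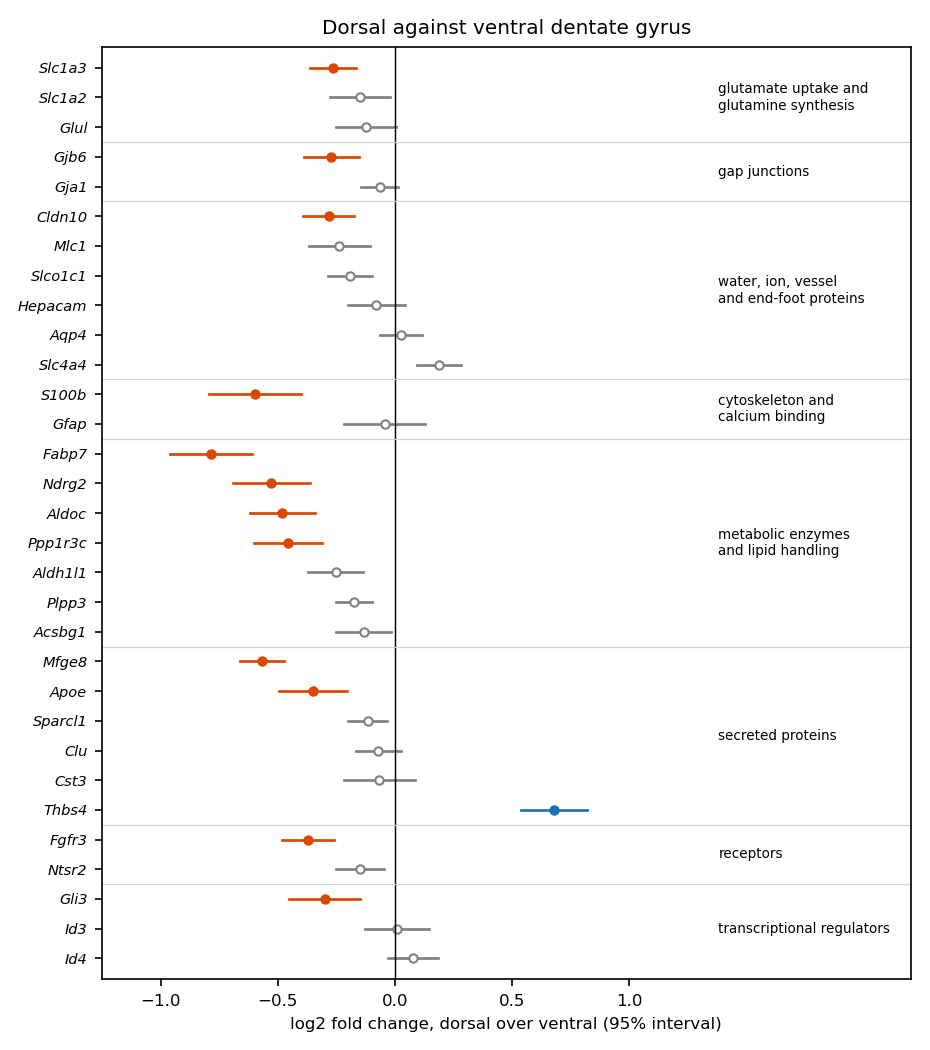
Log2 fold change of dorsal over ventral DG (x axis) for each of the 31 astrocyte genes (y axis, grouped by role), with 95% intervals from 18 samples. Filled orange points are the 12 members called higher in ventral, the filled blue point is *Thbs4*, called higher in dorsal, and open grey points were not called.

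The largest ventral excess belonged to *Fabp7*, which encodes the brain fatty acid binding protein of astrocytes and radial glia. *Fabp7* had 27.2, 37.1, 32.4 and 28.7 CPM in dorsal SH and 32.3, 37.9, 29.2, 28.9 and 25.9 CPM in dorsal EE. In the ventral samples it had 54.0, 54.9, 51.4 and 50.2 CPM in SH and 62.0, 69.7, 51.5, 46.6 and 42.7 CPM in EE. The regions did not overlap, and ventral EE replicates 1 and 2 stood above the rest. The log2 fold change of dorsal over ventral was -0.78 ± 0.085 (SE; 1.72-fold higher in ventral, adjusted p = 2.64e-07, edgeR). Measured against *Aqp4* in the same library, the ratio of CPM of *Fabp7* to *Aqp4* ran from 0.097 to 0.130 in dorsal and from 0.167 to 0.221 in ventral samples. *Fabp7* was picked here for the largest ventral excess, so the ratio restates that difference and is no separate test.

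*S100b*, a calcium-binding protein that astrocytes also release, was next. It had 96.1, 118, 101 and 90.4 CPM in dorsal SH, 119, 124, 106, 102 and 93.9 CPM in dorsal EE, 179.9, 167, 128 and 138 CPM in ventral SH and 183, 226, 151, 132 and 131 CPM in ventral EE. The highest dorsal sample, EE replicate 2, came close to the lowest ventral sample, SH replicate 4, and the log2 fold change was -0.60 ± 0.094 (1.51-fold, adjusted p = 5.23e-05, edgeR). *Mfge8*, a secreted protein that bridges dying cells to phagocytes, had 108, 127, 118 and 109 CPM in dorsal SH and 97.8, 112, 114, 109 and 104 CPM in dorsal EE, and 169, 171, 145 and 156 CPM in ventral SH and 170.0, 189, 158, 163 and 168 CPM in ventral EE. Its ranges in the 2 regions did not meet, and its log2 fold change of -0.57 ± 0.045 (1.48-fold higher in ventral) had the smallest adjusted p of the list (1.14e-09, edgeR).

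*Ndrg2*, a cytoplasmic protein abundant in astrocytes, had 649, 751, 661 and 580.2 CPM in dorsal SH, 763, 774, 666, 631 and 619.9 CPM in dorsal EE, 1021, 1018, 816 and 832 CPM in ventral SH and 1141, 1313, 953, 841 and 891 CPM in ventral EE. No dorsal value reached the lowest ventral value, and the log2 fold change was -0.53 ± 0.079 (1.44-fold, adjusted p = 2.37e-05, edgeR). The glycolytic aldolase gene *Aldoc* had 826, 952, 858 and 793 CPM in dorsal SH, 891, 1011, 877, 842 and 805 CPM in dorsal EE, 1279, 1270, 1058 and 1079 CPM in ventral SH and 1336, 1582, 1180, 1074 and 1128 CPM in ventral EE. It was 1.39-fold higher in ventral (log2 fold change -0.48 ± 0.068, adjusted p = 1.05e-05, edgeR), and its regions also stayed apart.

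*Thbs4* went the other way. This thrombospondin, a matrix protein secreted by astrocytes among other cells, had 13.1, 13.9, 15.7 and 12.6 CPM in dorsal SH, 12.5, 9.90, 11.6, 10.6 and 9.75 CPM in dorsal EE, 7.66, 7.03, 7.46 and 6.65 CPM in ventral SH and 6.87, 8.47, 8.70, 9.41 and 7.26 CPM in ventral EE. All dorsal samples were above all ventral samples, by a narrow margin between dorsal EE replicate 5 and ventral EE replicate 4. The log2 fold change was 0.68 ± 0.067 (1.60-fold higher in dorsal, adjusted p = 4.42e-08, edgeR), at 0.94 within SH and 0.42 within EE.

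**Figure D2:**
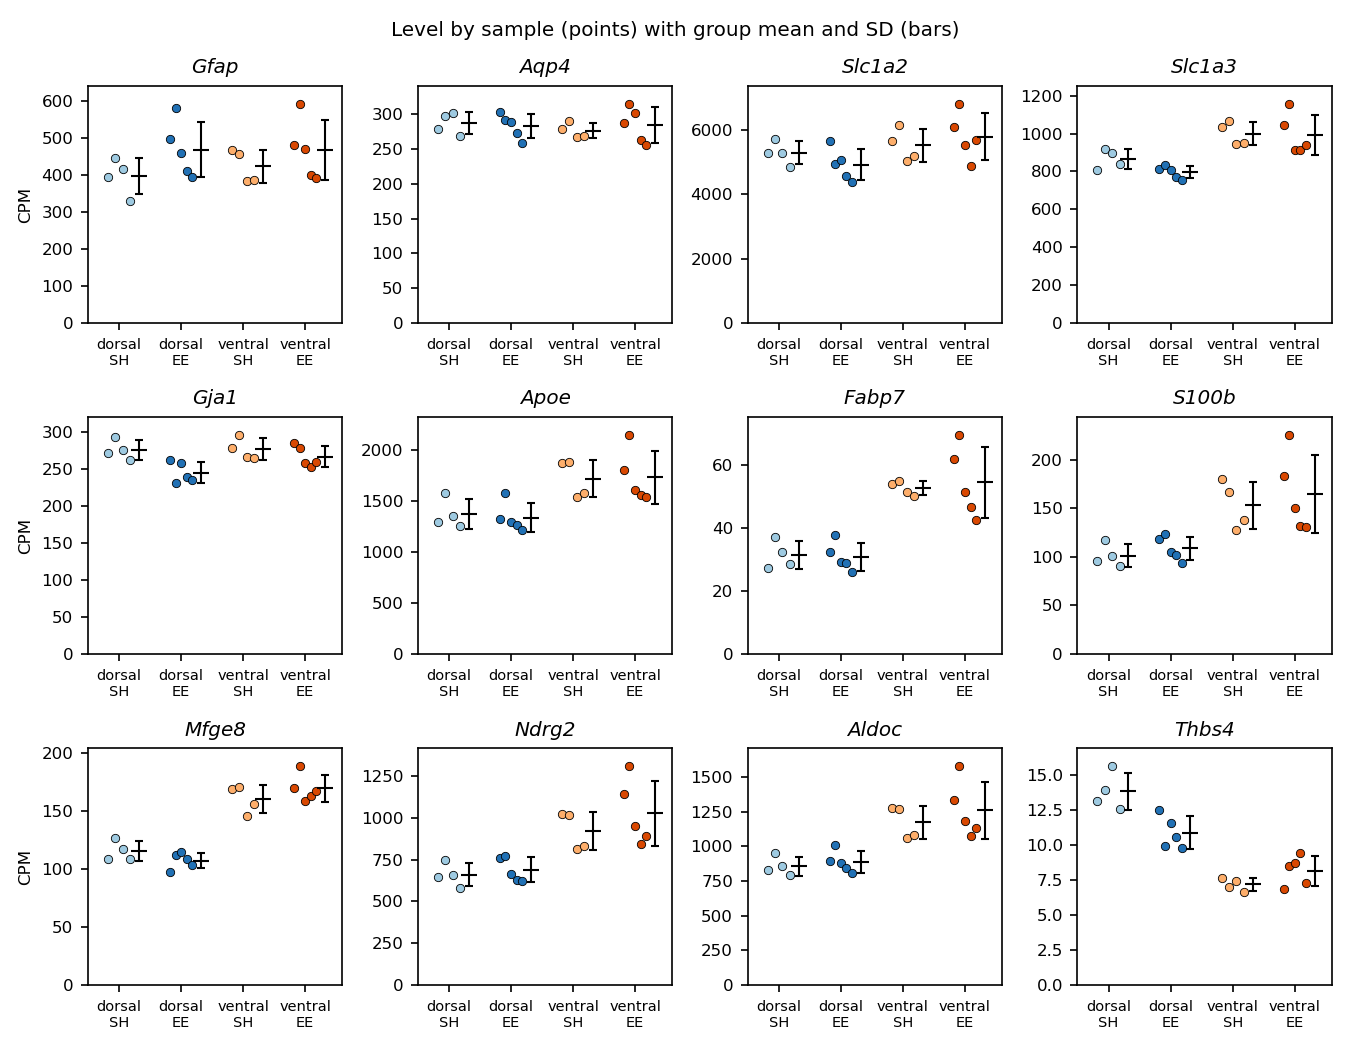
CPM (y axes, from 0) of 12 astrocyte genes in the 4 groups of region and housing (x axes), with 1 point per sample and the group mean with its SD as a bar. *Gfap*, *Aqp4* and *Gja1* overlap between regions, *Fabp7*, *S100b*, *Mfge8*, *Ndrg2* and *Aldoc* are higher in every ventral sample, and *Thbs4* is higher in every dorsal sample.

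The sequence just upstream of the start site is shown for the 3 members with the largest ventral excess and for *Thbs4*, the member of opposite direction, so that genes placed in opposite ways can be read side by side. Each line holds the 250 bases before the annotated start in 5′ to 3′ direction (RefSeq, GRCm38.p6, the same build as mm10). *Fabp7* lies at chr10:57784673-57784922 on the plus strand, *S100b* at chr10:76253586-76253835 on the plus strand, *Mfge8* at chr7:79149061-79149310 on the minus strand and *Thbs4* at chr13:92794819-92795068 on the minus strand. Capitals mark matches on either strand to any of 5 motifs of factors known in astroglia, which were TTGGCA (NFI factors), GTGGGAA (the Notch effector RBPJ), AGGTCA (nuclear receptors), AACAAT (SOX factors) and TTCNNNGAA (STAT factors).
Fabp7: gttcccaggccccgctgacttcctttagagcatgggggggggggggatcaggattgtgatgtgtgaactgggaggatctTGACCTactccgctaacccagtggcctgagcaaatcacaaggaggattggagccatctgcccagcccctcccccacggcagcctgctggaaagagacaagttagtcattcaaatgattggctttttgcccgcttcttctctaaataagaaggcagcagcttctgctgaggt
S100b: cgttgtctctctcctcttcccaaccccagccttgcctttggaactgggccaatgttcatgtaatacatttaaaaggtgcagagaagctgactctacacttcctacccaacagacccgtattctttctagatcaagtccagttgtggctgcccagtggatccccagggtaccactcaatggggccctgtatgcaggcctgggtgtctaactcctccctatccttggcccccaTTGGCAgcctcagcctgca
Mfge8: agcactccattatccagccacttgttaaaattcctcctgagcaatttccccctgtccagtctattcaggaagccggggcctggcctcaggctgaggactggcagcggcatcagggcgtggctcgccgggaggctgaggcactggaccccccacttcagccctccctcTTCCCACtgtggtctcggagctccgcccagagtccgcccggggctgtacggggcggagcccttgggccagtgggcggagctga
Thbs4: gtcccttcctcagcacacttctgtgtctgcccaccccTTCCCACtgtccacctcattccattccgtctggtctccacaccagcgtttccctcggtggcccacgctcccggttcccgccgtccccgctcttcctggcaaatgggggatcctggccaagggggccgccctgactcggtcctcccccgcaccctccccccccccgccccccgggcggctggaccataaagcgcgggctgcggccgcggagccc
The match in *Fabp7* reads as the nuclear receptor motif on the opposite strand, that in *S100b* as the NFI motif, and those in *Mfge8* and *Thbs4* as the RBPJ motif on the opposite strand, so that genes of opposite regional direction held the same letters. The 5 motifs do not overlap in these windows. Over the 28 members with a sequence, the NFI motif was found in 3, the RBPJ motif in 3, the nuclear receptor motif in 5, the SOX motif in 0 and the STAT motif in 3. Of all 32851 windows of this length, 12.3%, 5.42%, 14.0%, 9.42% and 7.02% held them in that order.

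The tallies by role that follow stand beside 15.9% of all genes called higher in ventral and 15.0% higher in dorsal. In the glutamate and glutamine group, 1 of 3 members was called. *Slc1a3*, the transporter GLAST, had 809, 920.0, 895 and 839 CPM in dorsal SH, 812, 833, 807, 772 and 754 CPM in dorsal EE, 1037, 1067, 946 and 951 CPM in ventral SH and 1045, 1158, 915, 915 and 939 CPM in ventral EE. It was higher in ventral in all 9 pools, although the highest dorsal sample, SH replicate 2, passed the lowest ventral samples, EE replicates 3 and 4. Its log2 fold change of -0.27 ± 0.047 (adjusted p = 1.35e-04, edgeR) sat at the 20% limit. It fell short of that limit with the pool as a block (-0.262, adjusted p = 8.60e-06, edgeR) and without SH replicate 1, EE replicate 1, EE replicate 2 or EE replicate 5 (-0.263 to -0.238).

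*Slc1a2*, the transporter GLT-1, had 5275, 5718, 5257 and 4844 CPM in dorsal SH and 5639, 4938, 5041, 4554 and 4382 CPM in dorsal EE. The ventral values were 5650, 6151, 5036 and 5180 CPM in SH and 6075, 6804, 5519, 4854 and 5660 CPM in EE. The regions overlapped, with dorsal lower in 8 of 9 pools, and the log2 fold change of -0.15 ± 0.062 was not called (adjusted p = 0.0501, edgeR). *Glul* had 1839 to 2219 CPM in the dorsal samples (median 2040) and 1942 to 2882 CPM in the ventral samples (median 2196), with a log2 fold change of -0.12 ± 0.062 that was not called (adjusted p = 0.116, edgeR).

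The connexins of astrocyte gap junctions gave 1 call of 2. *Gja1*, connexin 43, had 272, 294, 276 and 262 CPM in dorsal SH and 263, 231, 258, 239 and 236 CPM in dorsal EE, and 279, 297, 267 and 266 CPM in ventral SH and 286, 278, 259, 253 and 259 CPM in ventral EE. The ranges of dorsal SH and both ventral groups overlapped, with dorsal EE reaching lower, and the difference was not called (log2 fold change -0.064 ± 0.038, 95% interval -0.14 to 0.015, adjusted p = 0.127, edgeR). *Gjb6*, connexin 30, had 49.3 to 65.7 CPM in the dorsal samples (median 53.0) and 57.3 to 81.7 CPM in the ventral samples (median 62.2). It was lower in dorsal in all 9 pools and called at -0.27 ± 0.057 (adjusted p = 0.00104, edgeR), a call lost without SH replicate 1 (-0.249) or EE replicate 3 (-0.262).

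Among the 6 genes for water, ions, vessels and end-feet, 1 was called. *Aqp4*, the water channel of end-feet, had 279, 298, 302 and 269 CPM in dorsal SH, 304, 292, 289.7, 274 and 259 CPM in dorsal EE, 279, 290.3, 267 and 268 CPM in ventral SH and 288, 316, 301, 263 and 256 CPM in ventral EE. The 4 groups covered nearly the same range, and the log2 fold change of 0.025 ± 0.044 had a 95% interval of -0.065 to 0.12 (adjusted p = 0.759, edgeR). *Cldn10*, a claudin of tight junctions, had 32.1 to 39.0 CPM in the dorsal samples (median 33.7) and 37.6 to 48.5 CPM in the ventral samples (median 39.5) and was called at -0.28 ± 0.052 (adjusted p = 2.38e-04, edgeR), except without SH replicate 1 (-0.250). *Mlc1*, a membrane protein of end-feet, and *Slco1c1*, a thyroid hormone transporter, passed the adjusted p at -0.24 and -0.19 but not the fold limit. *Slc4a4*, a sodium bicarbonate cotransporter, was the 1 gene of this group with a dorsal excess in all 9 pools, having 368 to 420.3 CPM in the dorsal samples (median 405) and 307 to 382 CPM in the ventral samples (median 351). Its log2 fold change of 0.19 ± 0.045 passed the adjusted p (0.00428, edgeR) and stayed under the 20% limit. *Hepacam*, an adhesion protein that partners with *Mlc1*, had a log2 fold change of -0.079 ± 0.059 and was not called.

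*Gfap*, the intermediate filament gene that marks reactive astrocytes and stem cells, did not follow *S100b*. It had 395, 446, 416 and 329 CPM in dorsal SH, 498, 579, 460.0, 409 and 394 CPM in dorsal EE, 467, 456, 383 and 385 CPM in ventral SH and 479, 592, 470.2, 399 and 392 CPM in ventral EE. Dorsal was above ventral in 4 of 9 pools, and the log2 fold change of -0.045 ± 0.083 had a 95% interval of -0.22 to 0.13 (adjusted p = 0.814, edgeR).

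In the group of metabolic enzymes and lipid handling, in which *Ndrg2* was also placed, 4 of 7 members were called, all higher in ventral. Besides *Fabp7*, *Ndrg2* and *Aldoc* this was *Ppp1r3c*, a glycogen-targeting subunit of protein phosphatase 1, with 99.8 to 126 CPM in the dorsal samples (median 109) and 134 to 208 CPM in the ventral samples (median 148) and a log2 fold change of -0.46 ± 0.070 (adjusted p = 2.97e-05, edgeR). *Aldh1l1*, a folate enzyme much used to label astrocytes, had 59.9 to 72.2 CPM in the dorsal samples (median 66.9) and 69.8 to 97.8 CPM in the ventral samples (median 77.6). Its log2 fold change of -0.25 ± 0.056 passed the adjusted p (0.00133, edgeR) and missed the fold limit, as did that of the lipid phosphatase gene *Plpp3* (-0.17 ± 0.037, adjusted p = 6.84e-04). *Acsbg1*, an acyl-CoA synthetase, was at -0.13 ± 0.057 and not called (adjusted p = 0.112, edgeR).

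Of the 6 secreted proteins, 2 were higher in ventral and *Thbs4* was higher in dorsal. *Apoe* had 1293, 1581, 1355 and 1256 CPM in dorsal SH and 1328, 1579, 1297, 1266 and 1212 CPM in dorsal EE. In ventral SH it had 1874, 1880, 1538 and 1584 CPM and in ventral EE 1809, 2153, 1611, 1557 and 1537 CPM. SH replicate 2 and EE replicate 2 were the highest of their groups in both regions, the highest dorsal samples reached the lowest ventral ones, dorsal was lower in all 9 pools, and the log2 fold change was -0.35 ± 0.070 (1.28-fold higher in ventral, adjusted p = 6.19e-04, edgeR). The other 3 did not separate the regions. *Clu*, a secreted chaperone, was at -0.071 ± 0.046 (adjusted p = 0.340, edgeR) and *Cst3* at -0.066 ± 0.072 (adjusted p = 0.718, edgeR), while *Sparcl1*, which promotes synapse formation, passed the adjusted p (0.0307, edgeR) at a log2 fold change of only -0.12 ± 0.040.

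The receptors split in the same way. *Fgfr3*, a fibroblast growth factor receptor, had 98.0 to 123 CPM in the dorsal samples (median 109) and 124 to 172 CPM in the ventral samples (median 145), which all but met, and a log2 fold change of -0.37 ± 0.054 (adjusted p = 1.64e-05, edgeR). *Ntsr2*, a neurotensin receptor, was lower in dorsal in all 9 pools at -0.15 ± 0.050 (adjusted p = 0.0466, edgeR), short of the fold limit. Of the transcriptional regulators, *Gli3* was called at -0.30 ± 0.073 (adjusted p = 0.00249, edgeR) from a low level of 9.87 to 14.3 CPM in dorsal and 12.7 to 17.4 CPM in ventral samples. *Id3* (0.0084 ± 0.066) and *Id4* (0.077 ± 0.051), which encode inhibitors of basic helix-loop-helix factors and are targets of BMP signaling, were not called (adjusted p = 0.980 and 0.103, edgeR). The sign of *Id3* and that of *Aqp4* turned under another scaling of the libraries, the upper quartile.

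Within SH alone, 8 members were called higher in ventral and *Thbs4* higher in dorsal, beside 14.2% and 14.1% of all genes. Those 8 were *S100b*, *Aldoc*, *Fgfr3*, *Fabp7*, *Apoe*, *Mfge8*, *Ndrg2* and *Ppp1r3c*. Within EE alone, 13 were called higher in ventral and again *Thbs4* in dorsal, beside 15.8% and 14.1% of all genes. They were the same 8 with *Aldh1l1*, *Slc1a3*, *Gjb6*, *Gli3* and *Cldn10*. The interaction of region and housing, which tests whether a regional difference depended on housing, called 0 members.

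**Figure D3:**
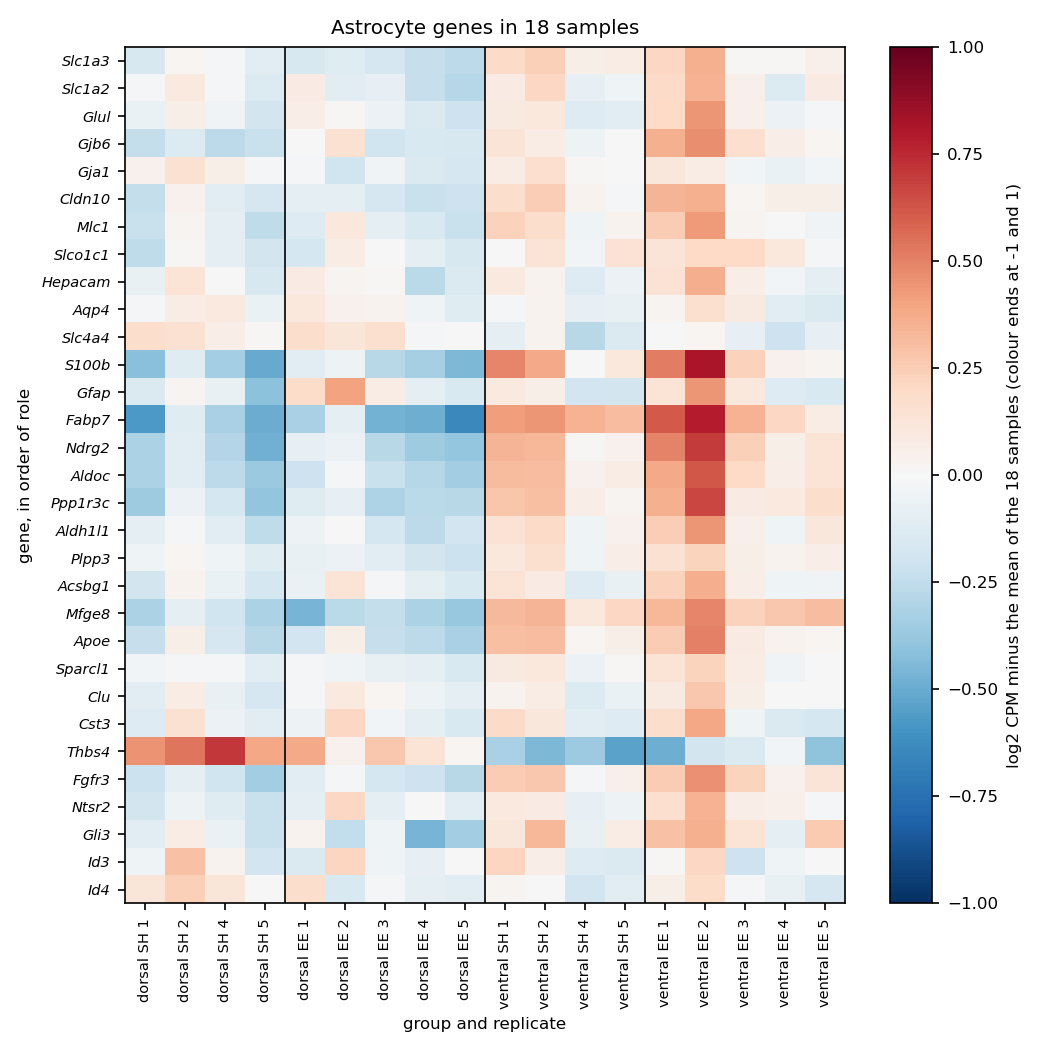
Log2 CPM of the 31 astrocyte genes (rows, in order of role) in 18 samples (columns, by group and replicate), as the difference from the mean of the gene over all samples. Ventral EE replicates 1 and 2 and ventral SH replicates 1 and 2 are the reddest columns, and *Thbs4* and *Slc4a4* run against most rows.

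Samples also differed within groups in a way that the astrocyte genes shared. The summed level of the 31 members ran from 15936 to 19423 CPM in dorsal samples and from 17979 to 24607 CPM in ventral samples. Ventral EE replicate 2 held the top of that range and was the highest ventral sample for 27 of 31 members. In the dorsal samples, EE replicate 2 was highest for 14 members and SH replicate 2 for 13, while SH replicate 5 and EE replicate 5 were each lowest for 10. Ventral SH replicate 4 was the lowest ventral sample for 18. The sum of 10 neuron markers, most of them genes of dentate granule cells, ran from 3127 to 4132 CPM in ventral and from 3647 to 4538 CPM in dorsal samples. It was lowest in ventral EE replicate 2, where the members' sum was highest, and among ventral samples highest in SH replicate 4, where the members' sum was lowest. Among dorsal samples the extremes fell in different samples. There the neuron sum was lowest in EE replicate 2 and highest in SH replicate 1, and the members' sum was highest in SH replicate 2 and lowest in EE replicate 5. Without the pool EE replicate 2, 11 members were called higher in ventral and 1 in dorsal, and without SH replicate 1 the numbers were 9 and 1.

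The markers of neighbouring tissues were read beside this. All 10 neuron markers were tested, with 7 higher in dorsal and 0 higher in ventral, beside 15.0% and 15.9% of all genes. Since most of them are genes of dentate granule cells, these calls do not speak for neurons in general. Each marker counts once among the calls, whereas their sum gives most weight to the markers with the most fragments. *Snap25*, a synaptic fusion protein and the highest of them by TPM, was not among the 7 (log2 fold change -0.093 ± 0.052). All 12 choroid plexus markers were higher in ventral, and their summed level was 27.8 to 220.2 CPM in dorsal and 404 to 1483 CPM in ventral samples. *Ttr*, their defining gene, had 5.12 to 173 CPM in the dorsal samples (median 25.6) and 347 to 1304 CPM in the ventral samples (median 543) and was thus not at 0 in any sample. Within ventral EE, the sample with the highest choroid plexus sum was replicate 3 (1483 CPM), where the members summed to 19689 CPM, and the lowest was replicate 2 (433 CPM), where they summed to 24607 CPM. All 6 ependymal markers were higher in ventral as well (6.49 to 13.0 against 14.2 to 26.2 CPM), as were 4 of 7 markers of meningeal fibroblasts. Oligodendrocyte, microglia and vessel markers gave 0 calls among 10 each in this comparison by the quasi-likelihood test, DESeq2 or the likelihood ratio test. By the quasi-likelihood test 4, 0 and 3 of them had an unadjusted p under 0.05, beside 57.2% of all genes. By the quasi-likelihood test without the fold limit, 3 oligodendrocyte markers and 1 vessel marker were higher in dorsal. On the ventral side these were 0 and 2, and microglia had 0 in either direction, beside 25.9% of all genes in dorsal and 26.3% in ventral. The part of these tissues in the regional values of the astrocyte genes was not tested.

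**Figure D4:**
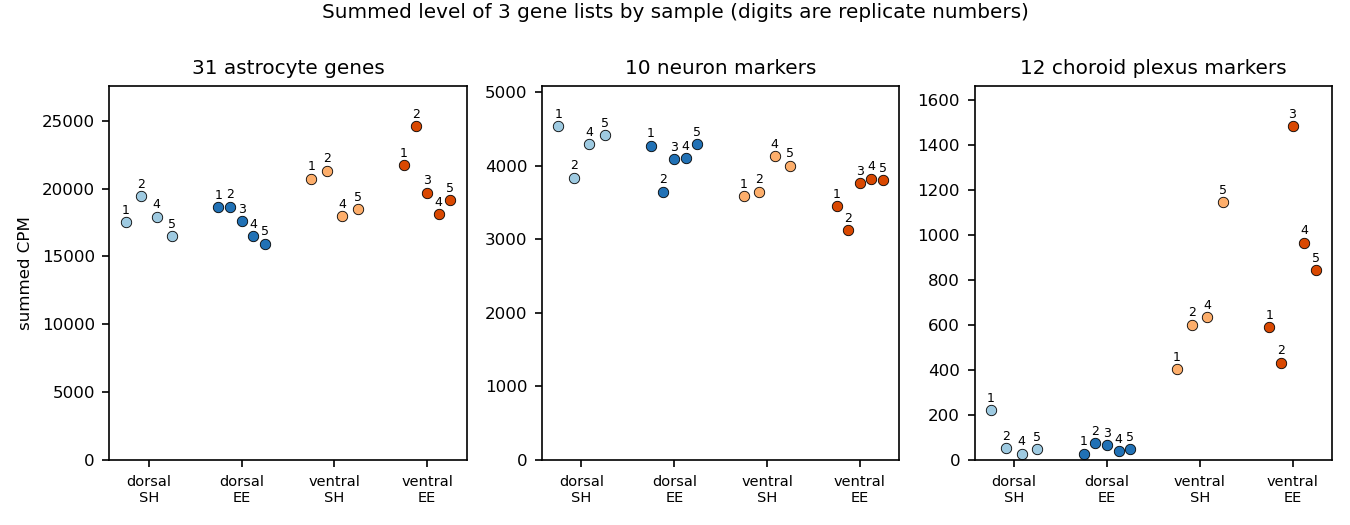
Summed CPM (y axes, from 0) of the 31 astrocyte genes, 10 neuron markers and 12 choroid plexus markers in each sample of the 4 groups (x axes), with digits for replicate numbers. Ventral EE replicate 2 has the highest astrocyte sum and the lowest neuron sum, and all ventral samples exceed all dorsal samples in the choroid plexus sum.

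Astrocyte genes outside the list were read in the same fit. Of 37 further genes, 11 were higher in ventral, 3 higher in dorsal and 23 not called, with a median log2 fold change of -0.18, close to that of the members. The largest ventral excess was that of *Agt*, angiotensinogen (-0.87 ± 0.10, adjusted p = 1.13e-06, edgeR), followed by *Gabrg1*, a GABA-A receptor subunit (-0.66 ± 0.047, adjusted p = 2.81e-10), and *Nkain4* (-0.53 ± 0.070, adjusted p = 5.64e-06). *Agt* had 16.7 to 33.6 CPM in the dorsal samples (median 21.9) and 37.4 to 51.6 CPM in the ventral samples (median 42.6). On the dorsal side were *Chrdl1*, a secreted BMP antagonist that acts on synapses (0.43 ± 0.081, adjusted p = 3.12e-04, edgeR), *Nfib*, a transcription factor that neurons express too (0.42 ± 0.043, adjusted p = 1.14e-07), and *Atp1b2*, a sodium pump subunit (0.34 ± 0.053, adjusted p = 4.43e-05). Of 26 genes of reactive astrocytes, 24 passed the limit on low counts, with 6 higher in ventral and 4 in dorsal. Of 10 genes of radial glia-like cells, 2 were higher in ventral and 2 in dorsal. Beside these 3 lists, 15.9% of all genes were called higher in ventral and 15.0% higher in dorsal.

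EE was then compared with SH within each region, to ask whether enrichment is followed by a change in astrocyte genes. No member was called in dorsal DG by edgeR's quasi-likelihood test, where 0.387% of all genes were called higher in EE and 0.246% higher in SH. An unadjusted p under 0.05 was reached by 3 members, *Thbs4*, *Gja1* and *Id4*, all of them lower in EE, beside 8.81% of all genes. In ventral DG no member was called either, where 0.182% of all genes were higher in EE and 0.0587% higher in SH. There 1 member, *Gjb6*, had an unadjusted p under 0.05, beside 7.58% of all genes. DESeq2 and the likelihood ratio test each called 1 member, *Thbs4*, in dorsal and 0 in ventral DG. The interaction called 0 members by the quasi-likelihood test, beside 0.00587% of all genes, and 0 by DESeq2 and the likelihood ratio test. Its unadjusted p was under 0.05 for 2 members, *Thbs4* and *Id4*, beside 3.25% of all genes.

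**Figure D5:**
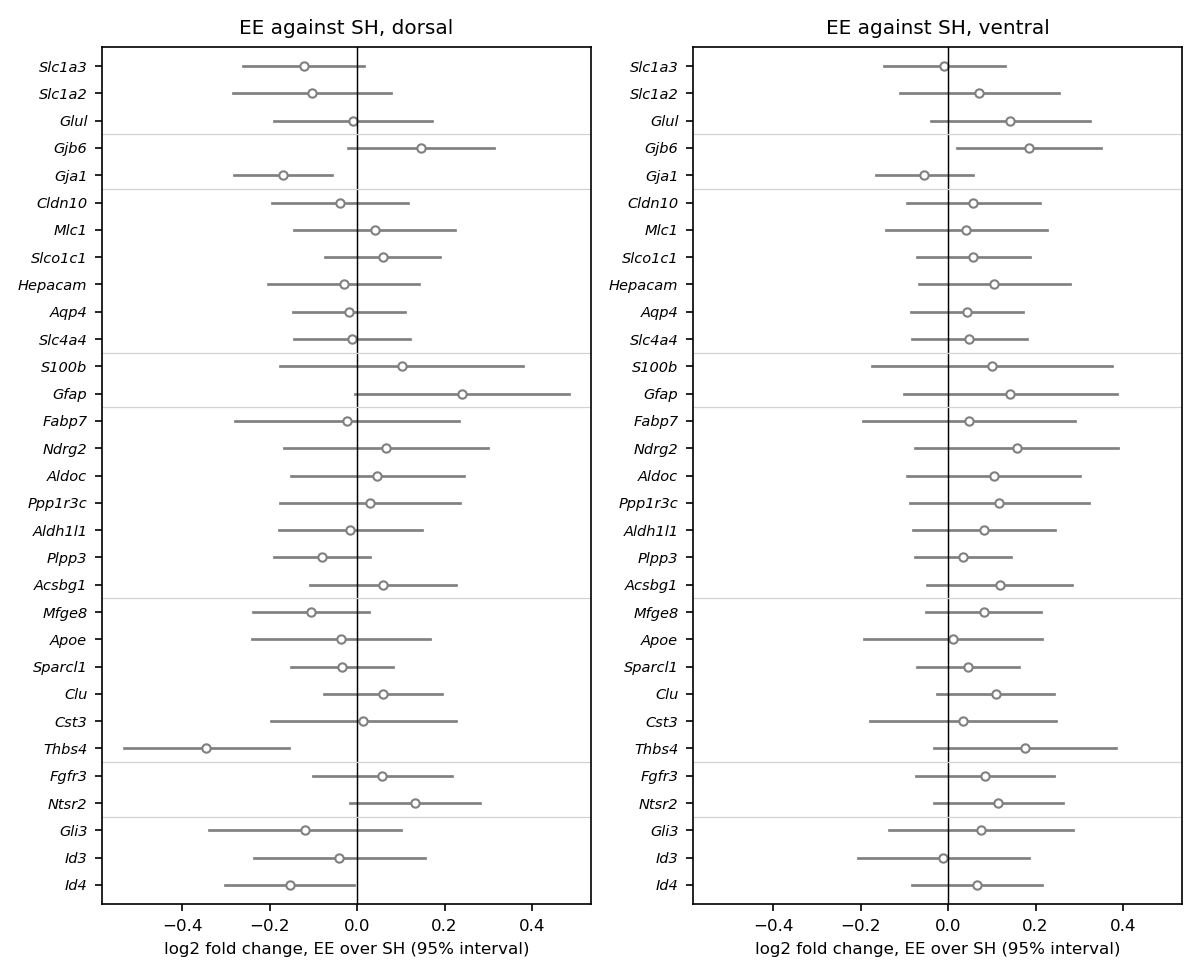
Log2 fold change of EE over SH (x axes) with 95% intervals for the 31 astrocyte genes (y axes, in order of role) in dorsal DG (left, 5 EE and 4 SH samples) and ventral DG (right, 5 EE and 4 SH samples). All points are open because no member was called, and *Thbs4* in dorsal DG lies farthest from 0.

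*Thbs4* came nearest to a call. Every dorsal SH sample (12.6 to 15.7 CPM) was above every dorsal EE sample (9.75 to 12.5 CPM), which 1.78% of all genes showed, while the reverse order was seen in 0 members and 2.21% of all genes. The gap between the nearest samples, dorsal SH replicate 5 and dorsal EE replicate 1, was small. The log2 fold change of EE over SH was -0.34 ± 0.091 (unadjusted p = 9.75e-04, adjusted p = 0.0897, edgeR). The adjusted p ran from 0.0136 to 0.365 over the alternatives, and *Thbs4* passed the threshold with DESeq2 (0.0417), the likelihood ratio test (0.0279), no limit on low counts (0.0442), the third SH pool included (0.0302), EE replicate 1 left out (0.0350) and the replicate number as a block (0.0136). In ventral DG its log2 fold change was 0.18 ± 0.10 (adjusted p = 0.729, edgeR), with ranges that overlapped. The EE effect in dorsal minus that in ventral was -0.52 ± 0.13 (unadjusted p = 8.53e-04, adjusted p = 1.00, edgeR).

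For the remaining members the intervals give the range of housing effects left by the data. *Gja1* in dorsal DG had a log2 fold change of -0.17 ± 0.054 (unadjusted p = 0.00469, adjusted p = 0.220, edgeR), with 1 of the EE samples inside the range of SH. *Gfap* had means of 396 ± 49.5 CPM in dorsal SH (SD, n = 4) and 468 ± 74.4 CPM in dorsal EE (SD, n = 5). The ranges overlapped, and the log2 fold change of 0.24 ± 0.12 had a 95% interval of -0.0052 to 0.48 (adjusted p = 0.583, edgeR). In ventral DG the value was 0.14 ± 0.12 (-0.10 to 0.39). Over the alternatives (edgeR or DESeq2), the adjusted p in dorsal DG ran from 0.0117 to 0.869 for *Gfap* and from 0.0162 to 0.440 for *Gja1*. Neither was called in any of them, since the fold limit was not passed where the adjusted p was under 0.05. For *Aqp4* the intervals were -0.15 to 0.11 in dorsal and -0.084 to 0.17 in ventral DG, for *Slc1a2* -0.28 to 0.078 and -0.11 to 0.25, for *Slc1a3* -0.26 to 0.017 and -0.15 to 0.13, and for *Apoe* -0.24 to 0.17 and -0.19 to 0.22.

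In ventral DG, 28 of 31 members had a positive log2 fold change of EE over SH, with a median of 0.076 against -0.00018 over all genes. That median moved with single pools, among them the one with the lowest neuron sum, EE replicate 2. It was 0.011 without EE replicate 2, with 23 members above 0, and 0.031 without SH replicate 4, with 23 above 0. It was 0.12 without EE replicate 4 and also without SH replicate 2, with 30 above 0 in each case. In dorsal DG, 13 members were above 0 and 18 below, with a median of -0.015, and the majority turned with single pools. It was 21 above and 10 below without SH replicate 2 (median 0.038), 18 above and 13 below without EE replicate 4 (0.016) or EE replicate 5 (0.015), and 9 above and 22 below without EE replicate 2 (-0.043). The median was -0.045 without SH replicate 5, -0.033 without EE replicate 1 and -0.0036 without SH replicate 4. No member had all ventral EE samples above all ventral SH samples or the reverse, which 1.28% and 1.17% of all genes showed. Among the 37 further astrocyte genes, the 24 tested genes of reactive astrocytes and the 10 of radial glia-like cells, 0 were called in either region by the quasi-likelihood test. In dorsal DG 3, 4 and 4 of them had an unadjusted p under 0.05, beside 8.81% of all genes. In ventral DG these were 5, 4 and 1, beside 7.58% of all genes. DESeq2 and the likelihood ratio test each called 1 gene of the radial glia-like list lower in dorsal EE and 1 of the reactive list higher in ventral EE, both named after their values were seen. *Hes5*, a target of Notch signaling, had a log2 fold change of -0.39 ± 0.099 in dorsal DG (adjusted p = 0.0691, edgeR). *Lcn2*, a secreted lipocalin induced in reactive astrocytes, had 0.247, 0.376, 0.527 and 0.548 CPM in ventral SH and 1.94, 1.13, 1.33, 3.15 and 1.74 CPM in ventral EE (adjusted p = 0.0501, edgeR), few fragments with every EE sample above SH.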

How the data were processed

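RNA was sequenced from pooled dorsal and ventral DG punches as stranded total RNA libraries. Per the study's methods and processing notes, reads were trimmed with Trim Galore 0.4.0 and aligned to mm10 with STAR 2.5.1b and Gencode vM7. The deposited count files hold the counts per gene that the authors obtained from STAR, of which the reverse-stranded column was used and the unstranded column served as an alternative. The authors estimated the deposited TPM values with RSEM 1.2.30. Since Rn7s1, Rn7s2, Rn7sk and Rny3 held 54.0% to 66.2% of TPM, TPM was not used to test differences between samples. It served to order genes by level and, in 1 alternative, as a limit of TPM over 1 in at least 3 samples. Symbols were assigned from a Gencode M21 table to 45968 of 46480 genes, among them all 169 listed genes. The RefSeq promoter table matched 28 of 31 members, with *Aqp4*, *Clu* and *Sparcl1* not matched. DNA methylation samples of the series were not analysed here.

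Genes that exceeded 10 counts in 2 or more samples were fitted with TMM factors and edgeR 4.0.16 (R 4.3.3), with the 4 groups of region and housing in 1 quasi-likelihood model. The test between regions was a joint test over both housings, and fold changes and SE came from the mean of both. Calls required a Benjamini-Hochberg adjusted p under 0.05 over all genes tested and a fold change over 20%, without the fold limit for the interaction. DESeq2 1.42.0, other scalings, count filters, samples and a replicate block were alternatives. The fit was tested on simulated data. Tables and plots were made with Python 3.11.15, pandas 2.3.3, numpy 2.4.6 and matplotlib 3.10.9. Each member was placed in a role. Values per sample were given for *Gfap*, *Aqp4*, *Slc1a2*, *Slc1a3*, *Gja1* and *Apoe* whatever their result, and for up to 5 called members with the largest excess in each region, and would have been given for any member called for housing. Other genes were named from lists only, namely the 3 further astrocyte genes with the largest excess in each region, any further astrocyte, reactive or radial glia-like gene called for housing, and the highest markers by TPM. Members and lists were chosen with earlier results of these data known. Dorsal and ventral samples of 1 pool come from the same mice. Over all genes tested, their deviations from the group means had a mean correlation of 0.0827 over 9 pairs, with 4 over 0.1. This correlation was not computed for the members alone, which can follow their pool more closely. *Gfap* and *Apoe*, for example, had their highest EE value in replicate 2 in both regions.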

Additional observations from a re-analysis of the deposited data

Results flagged for a closer look

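In 1 of 124 groups of samples checked over the 31 members, a single sample stood apart from the others of its group by Dixon's criterion, which chance gives in about 1 of 20 groups. *Sparcl1* had 1804 CPM in dorsal SH replicate 5, below 1913 to 1934 CPM in the other dorsal SH samples.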

How the results depend on the processing

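Of 941 alternative values for 48 gene results, 894 kept their direction and their side of the threshold. Without the fold limit, 2 members were called higher in dorsal in the joint test, 2 in SH and 2 in EE, and 13 were higher in ventral in SH. With 1 pool left out, 9 to 14 members were higher in ventral in the joint test (9 without SH replicate 1), 7 to 10 in SH and 13 to 14 in EE. *Thbs4* was the 1 member called lower in dorsal EE with DESeq2, the likelihood ratio test, no limit on low counts, SH replicate 3 included and the replicate block, and 0 to 1 members were called with 1 pool left out. *Aldh1l1* and *Mlc1* passed the fold limit with upper quartile factors and without SH replicate 4. *Gli3*, at 0.53 to 1.01 TPM, was lost under a limit of TPM over 1 in at least 3 samples.

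Signs turned only for small differences that were not called, and the cause was not tested. With upper quartile factors the log2 fold change of dorsal over ventral was -0.0060 for *Aqp4* and -0.022 for *Id3*, which had -0.0026 with unstranded counts. With SH replicate 3 included, EE over SH in ventral DG was -0.0093 for *Aqp4* and -0.0054 for *Apoe*. With 1 pool left out, *Id3* ran from -0.030 to 0.061 between regions. EE over SH then ran in dorsal DG from -0.043 to 0.015 for *Aqp4* and from -0.10 to 0.038 for *Apoe*, and in ventral DG from -0.068 to 0.024 for *Slc1a3* and from -0.077 to 0.057 for *Apoe*.

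With the replicate block, *Slc1a3* lost its call between regions (11 members higher in ventral), its EE difference in ventral DG became 0.017, and 1 member, *Thbs4*, was called for EE in dorsal DG. No other gene result of the joint test between regions or of the EE tests changed its call under the block. For *Gfap* and *Gja1* in dorsal DG, the adjusted p of EE against SH fell under the threshold in at least 1 alternative, without passing the fold limit. EE and SH pools were matched by their numbers alone, and whether a shared number marks a shared cohort or batch is not known. Their deviations had a mean correlation of 0.126 over 8 pairs, with 7 over 0.1, taken over all genes tested. *Thbs4* had 177 to 367 fragments per sample and *Gli3* 242 to 456, so small differences of these members were least resolved.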
